A study of Homo sapiens with 12 samples.

Results

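The 49 genes described here build and run the DNA replication fork, from the origin recognition complex to the enzymes that supply nucleotides. They were chosen by name as rows of a table of 60671 human genes and fall into 11 roles. All 49 had a mean of at least 1 FPKM over the 12 libraries (FPKM are fragments scaled to gene length and to the fragments of the library), and 11591 genes in all passed that minimum and were tested. RNA came from cells labelled Jurkat, a T cell acute lymphoblastic leukemia line, in 4 groups of 3 libraries, each after 48 h of treatment. NC+DMSO and NC+VCR cells are labelled wild type and, per the study's methods, carried a GFP vector. PTPN21+DMSO and PTPN21+VCR cells carried a lentiviral construct that expresses FLAG-tagged PTPN21, a cytoplasmic protein tyrosine phosphatase, from the SFFV promoter. VCR is vincristine, a vinca alkaloid that blocks the assembly of microtubules, and DMSO is its solvent. The study asked how overexpressed PTPN21 alters the response of leukemia cells to the drug. The VCR dose of these libraries and the separate origin of the 3 replicates of a group are not given in the sources used here, so p-values measure the spread between libraries, which may be technical.

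As a check of the labels, PTPN21 itself measured 0.0212 to 0.0934 FPKM in NC+DMSO, 0.160 to 0.569 in NC+VCR, 7.93 to 10.53 in PTPN21+DMSO and 4.34 to 6.53 in PTPN21+VCR, with no overlap between constructs. The label Jurkat was checked against 11 T lineage markers, and 2 of them passed the minimum. CD3D reached 61.8 to 140 FPKM and TAL1 3.22 to 16.5, while CD247, CD28 and LCK were listed at 0 in all 12 libraries, CD2 in 11 and CD3E in 9. None of 8 B lineage markers passed. Against the label, 19 of 21 erythroid genes, a list written after the values were seen, passed the minimum, with GATA1 at 13.5 to 106 FPKM and HBG2 at 560 to 2985. The summed FPKM of that list differed between groups, with 1914 to 2862 in NC+DMSO, 3950 to 5202 in PTPN21+DMSO, 1215 to 1305 in NC+VCR and 1482 to 1669 in PTPN21+VCR. Its part in the results on replication genes was not tested. These markers do not settle which cells these are, and the cells are called by their label throughout. In a bulk sample, fewer cells in S phase and less RNA per cell cannot be told apart. The table gives no depth. It was estimated from the steps of FPKM times length, which cannot separate 1 fragment from 2. Libraries held 14.6 to 16.4 M fragments (M, mega) in NC+DMSO and 16.7 to 18 M in NC+VCR. PTPN21+DMSO libraries held 22.4 to 23.9 M and PTPN21+VCR libraries 20.6 to 22.3 M. Estimated depth thus differed without overlap between constructs, and between DMSO and VCR within each construct. It cannot be told apart from construct or drug.

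Replication begins at origins, where the origin recognition complex (ORC), CDC6 and CDT1 load the ring-shaped MCM2-7 helicase in G1 phase, and geminin (GMNN) holds CDT1 in check afterwards. In S phase the kinase CDC7 with DBF4 allows CDC45 and the GINS complex to join MCM2-7 and open the DNA. Polymerase alpha-primase starts each strand, polymerases epsilon and delta extend it on the PCNA clamp that replication factor C (RFC) loads, replication protein A (RPA) coats the bare strand, and FEN1 and LIG1 join Okazaki fragments. Many of these genes are transcribed towards S phase by E2F factors, which bind near their starts.

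Promoter sequences from RefSeq (GRCh38.p14), reaching from 250 bases before to 50 after each gene's start, were found for 43 of the 49 genes. Some are shown because the VCR results below include genes with and without E2F letters. The E2F letters TTTCCCGC, TTTCGCGC, TTTGGCGC or TTTGCCGC, on either strand, were present in 19 of the 43 (44.2%), against 3.33% of all 27305 promoters of that length. CCAAT was present in 53.5% against 35.7%, GGGCGG in 67.4% against 44.6%, and the CHR letters TTTGAA, known from G2/M genes, in 4.65% against 15.4%. The windows of 7 genes follow, each from 190 bases before to 9 after the start, read 5′ to 3′ on the gene's strand, with E2F letters in capitals. MCM3 (chr6:52284733-52284932, minus strand), MCM6 (chr2:135876434-135876633, minus strand), MCM7 (chr7:100101388-100101587, minus strand), GINS2 (chr16:85688945-85689144, minus strand) and POLA2 (chr11:65261772-65261971, plus strand) were lower with VCR in both constructs. PCNA (chr20:5126613-5126812, minus strand) holds the letters and passed no test, and FEN1 (chr11:61792721-61792920, plus strand) lacks them in this window and was lower with VCR in both constructs.
MCM3: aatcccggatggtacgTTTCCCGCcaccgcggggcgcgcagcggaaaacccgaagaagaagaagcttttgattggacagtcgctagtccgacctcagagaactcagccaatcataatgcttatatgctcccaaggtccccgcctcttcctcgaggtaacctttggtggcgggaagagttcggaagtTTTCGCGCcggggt
MCM6: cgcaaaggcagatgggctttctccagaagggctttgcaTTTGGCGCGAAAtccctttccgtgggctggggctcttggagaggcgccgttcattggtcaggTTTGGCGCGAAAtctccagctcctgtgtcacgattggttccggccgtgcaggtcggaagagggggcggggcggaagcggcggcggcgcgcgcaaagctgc
MCM7: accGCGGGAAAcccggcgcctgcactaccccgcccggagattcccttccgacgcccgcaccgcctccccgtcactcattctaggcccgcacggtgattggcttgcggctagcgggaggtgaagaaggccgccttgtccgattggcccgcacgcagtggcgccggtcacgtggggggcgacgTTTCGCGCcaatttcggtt
GINS2: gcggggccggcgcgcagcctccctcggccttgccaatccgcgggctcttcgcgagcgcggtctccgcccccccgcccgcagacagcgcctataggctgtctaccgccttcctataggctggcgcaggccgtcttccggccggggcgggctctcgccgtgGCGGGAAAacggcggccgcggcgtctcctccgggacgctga
POLA2: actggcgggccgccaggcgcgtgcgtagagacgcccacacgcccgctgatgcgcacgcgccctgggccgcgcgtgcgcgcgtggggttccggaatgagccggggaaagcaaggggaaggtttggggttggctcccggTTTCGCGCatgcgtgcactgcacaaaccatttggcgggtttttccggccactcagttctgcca
PCNA: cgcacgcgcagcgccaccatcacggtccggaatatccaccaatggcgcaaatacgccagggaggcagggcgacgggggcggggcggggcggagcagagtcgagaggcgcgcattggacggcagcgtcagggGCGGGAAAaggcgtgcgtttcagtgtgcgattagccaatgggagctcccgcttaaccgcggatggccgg
FEN1: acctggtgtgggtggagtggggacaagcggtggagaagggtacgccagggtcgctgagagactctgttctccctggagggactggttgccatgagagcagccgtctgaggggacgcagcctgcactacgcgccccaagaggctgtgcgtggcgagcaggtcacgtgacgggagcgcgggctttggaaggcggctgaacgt

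Counted from the start as 0, the matches begin at -174 and -4 in MCM3, at -187 and -9 in MCM7, at -31 in GINS2, at -53 in POLA2 and at -59 in PCNA. MCM6 holds 4 matches, at -152, -148, -90 and -86, which form 2 pairs that overlap on opposite strands. Among genes with a promoter sequence, the letters were present in 9 of the 15 that were lower with VCR in both constructs, in 3 of the 11 lower in 1 construct and in 7 of the 17 lower in neither. A match describes the letters in this window and is no evidence of binding.

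Under VCR 17 of the 49 replication genes passed lower in both constructs and 19 passed lower in neither. The share of all genes tested that passed lower in both constructs is not given here, so 17 cannot be set against it. Values were compared as log2(FPKM + 1) with limma, in 1 model of the 4 groups and with Benjamini-Hochberg adjustment over all genes tested at a threshold of 0.05. Changes of genes with few FPKM appear smaller on this scale than they are. In NC cells 27 of the 49 genes passed lower and 1 higher, against 28.3% of all genes tested lower and 7.91% higher. In PTPN21 cells 20 passed lower and 3 higher, against 19.3% and 9.22% of all genes. The 2 comparisons share no library but do share the estimate of the spread. The 17 genes lower in both constructs are 63.0% of the 27 and 85% of the 20. The median log2 change of the 49 was -0.60 in NC and -0.34 in PTPN21 cells, beside -0.36 and -0.17 over all genes tested. The summed FPKM of the 49 lay between 2507 and 2667 in NC+DMSO, 1675 and 1809 in NC+VCR, 2234 and 2482 in PTPN21+DMSO, and 1670 and 1737 in PTPN21+VCR. No VCR library reached any DMSO library.

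**Figure D1:**
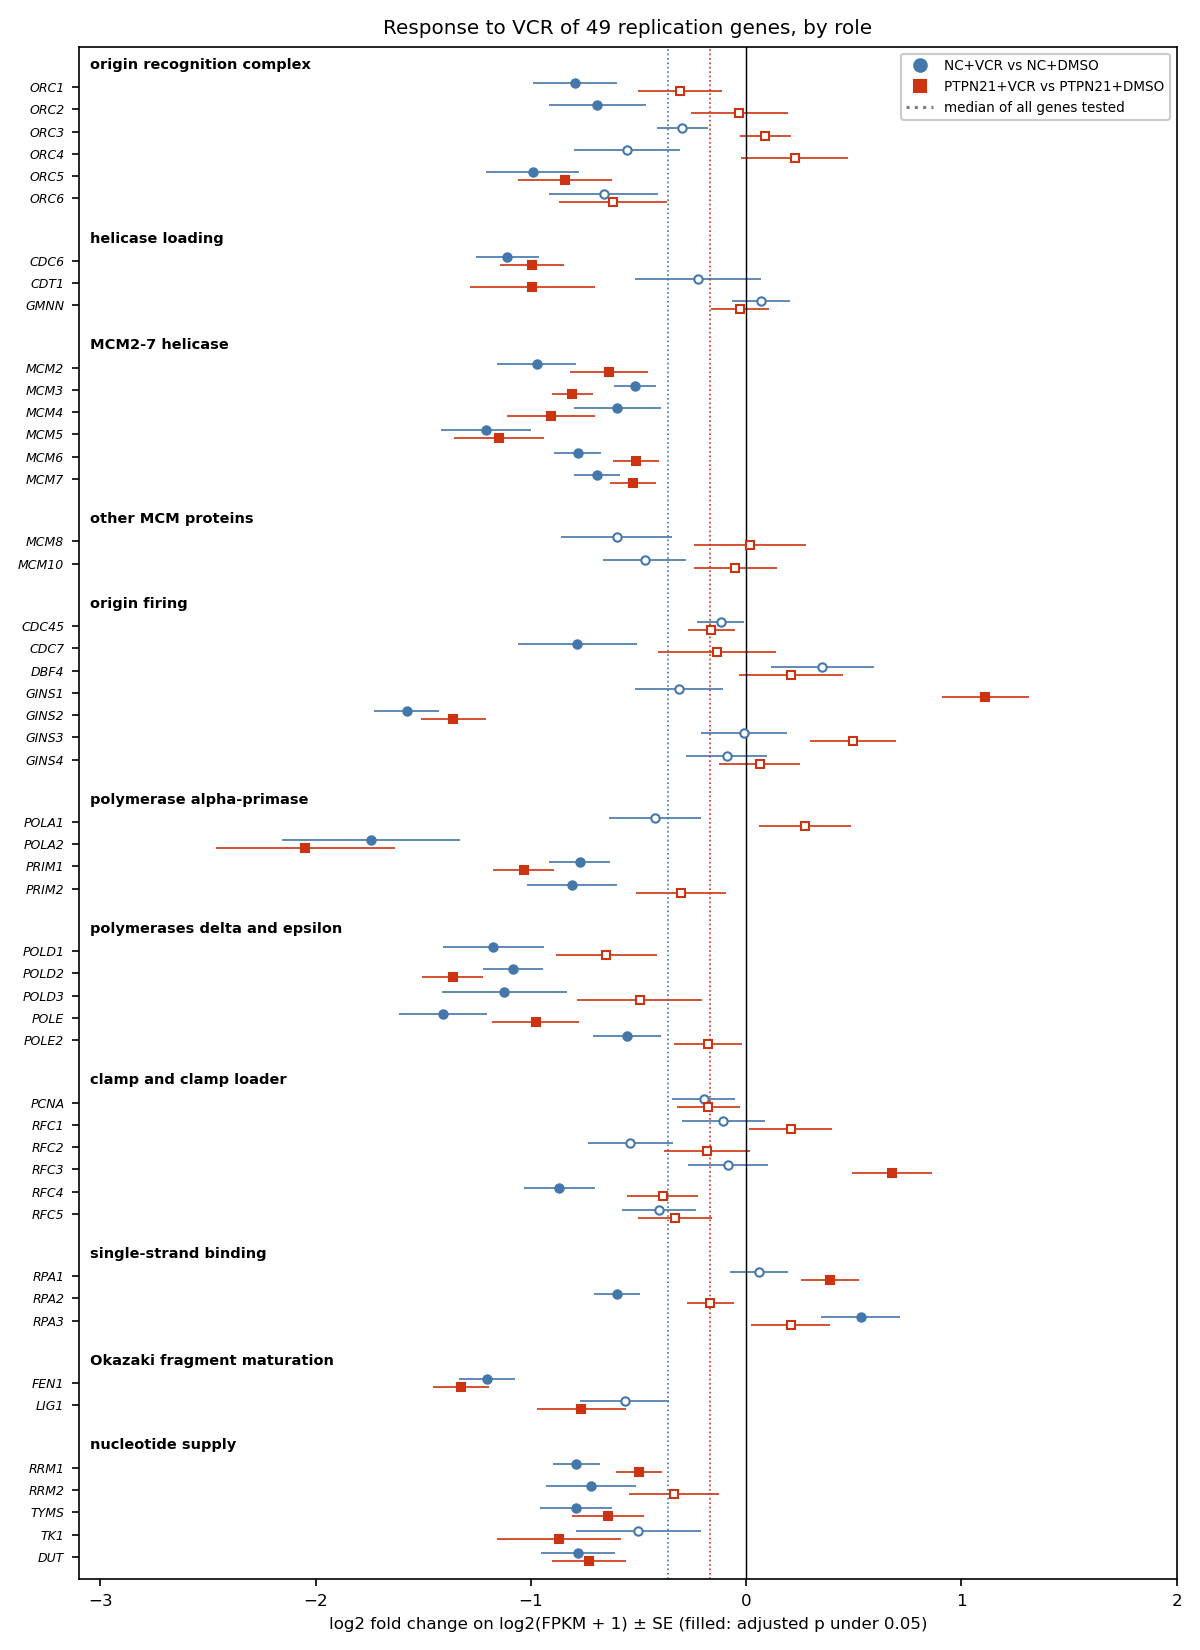
The plot gives the log2 fold change with VCR on the log2(FPKM + 1) scale (horizontal axis, with standard errors) of each of the 49 genes (vertical axis, by role), as circles in NC and squares in PTPN21 cells, filled where the adjusted p was under 0.05. All 6 MCM2-7 genes are filled on the left in both constructs, and the dotted lines mark the medians of all genes tested, -0.36 in NC and -0.17 in PTPN21 cells.

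Because so many genes were lower with VCR, the count depends on the scaling of the libraries. With median ratio scaling, which sets the typical gene near 0, 11 of the 49 were lower and 4 higher in NC cells (11.7% and 14.8% of all genes), and 13 lower and 4 higher in PTPN21 cells (12.5% and 13.7%). With quantile normalization the counts were 18 lower and 3 higher in NC (12.02% and 13.3% of all genes), and 14 lower and 4 higher in PTPN21 cells (13.3% and 14.2%). With TPM scaling, which gives every library the same sum, they were 33 lower and 0 higher in NC (32.9% and 6.41%), and 20 lower and 2 higher in PTPN21 cells (18.9% and 8.12%). Under all 4 scalings and in both constructs 7 genes were lower, namely CDC6, MCM5, GINS2, POLA2, POLD2, POLE and FEN1. A further 4 were lower under all 4 scalings in NC cells (MCM2, MCM6, POLD1 and RRM1), and a further 5 in PTPN21 cells (MCM3, MCM4, MCM7, PRIM1 and DUT). Shares of all genes tested are not given here for these counts under all 4 scalings.

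**Figure D2:**
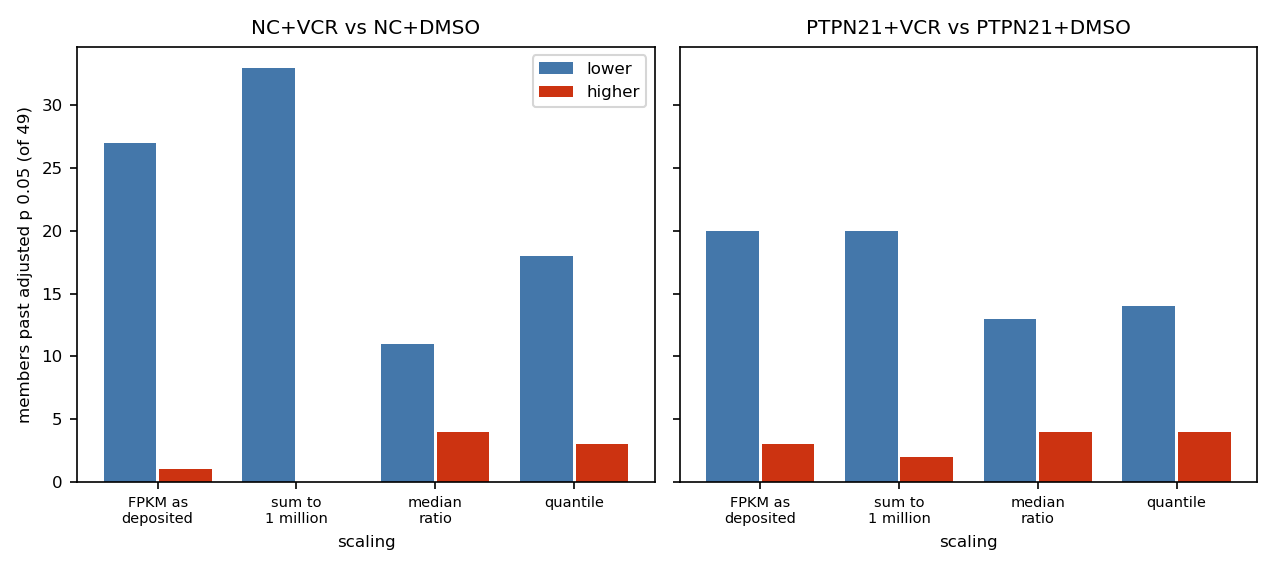
Bars give how many of the 49 genes (vertical axis) passed an adjusted p of 0.05 lower or higher with VCR under 4 scalings of the libraries (horizontal axis), in NC cells on the left and PTPN21 cells on the right. In NC cells the count of lower genes runs from 11 with median ratio scaling to 33 with every library set to the same sum.

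Of the MCM2-7 helicase, the motor that unwinds DNA at the fork, all 6 subunits were lower with VCR in both constructs, by 0.52 (MCM3) to 1.21 (MCM5) on the log2 scale in NC cells as deposited, and with median ratio scaling the 6 values were still negative, with 3 past the threshold in NC and 4 in PTPN21 cells. MCM5 (ENSG00000100297, chr22:35400063-35425430, plus strand, GRCh38 from GENCODE release 29) measured 25.0, 28.2 and 30.3 FPKM in NC+DMSO, and 9.96, 8.82 and 16.9 in NC+VCR. In PTPN21 cells it measured 25.3, 30.2 and 22.5 with DMSO, and 11.8, 10.7 and 10.8 with VCR. The ranges did not overlap, and NC+VCR replicate 3 was the highest VCR library. The log2 fold change of MCM5 was -1.21 in NC (SE 0.21, limma adjusted p = 0.00113) and -1.15 in PTPN21 cells (SE 0.21, adjusted p = 0.00188). MCM3, the most abundant subunit, stood at 233 to 250.1 FPKM in NC+DMSO and at 152 to 183 in NC+VCR, and at 245 to 269 and 140 to 147 in PTPN21 cells. MCM6 was at 43.2 to 46.4 and 24.8 to 27.1 in NC cells, and MCM7 at 134 to 143 and 75.8 to 91.6. MCM2 fell from 28.97 to 42.0 down to 15.2 to 20.3 FPKM in NC cells and from 17.8 to 23.5 down to 12.01 to 15.6 in PTPN21 cells. For each of the 6 the VCR libraries lay below the DMSO libraries of the same construct. The share of all genes tested with such a gap is not given here. MCM8 and MCM10, which act in recombination and in helicase activation, passed in neither construct with VCR as deposited. They stood at 17.7 to 43.1 and 11.4 to 25.3 FPKM over the 12 libraries. With TPM scaling MCM10 passed lower in NC cells.

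**Figure D3:**
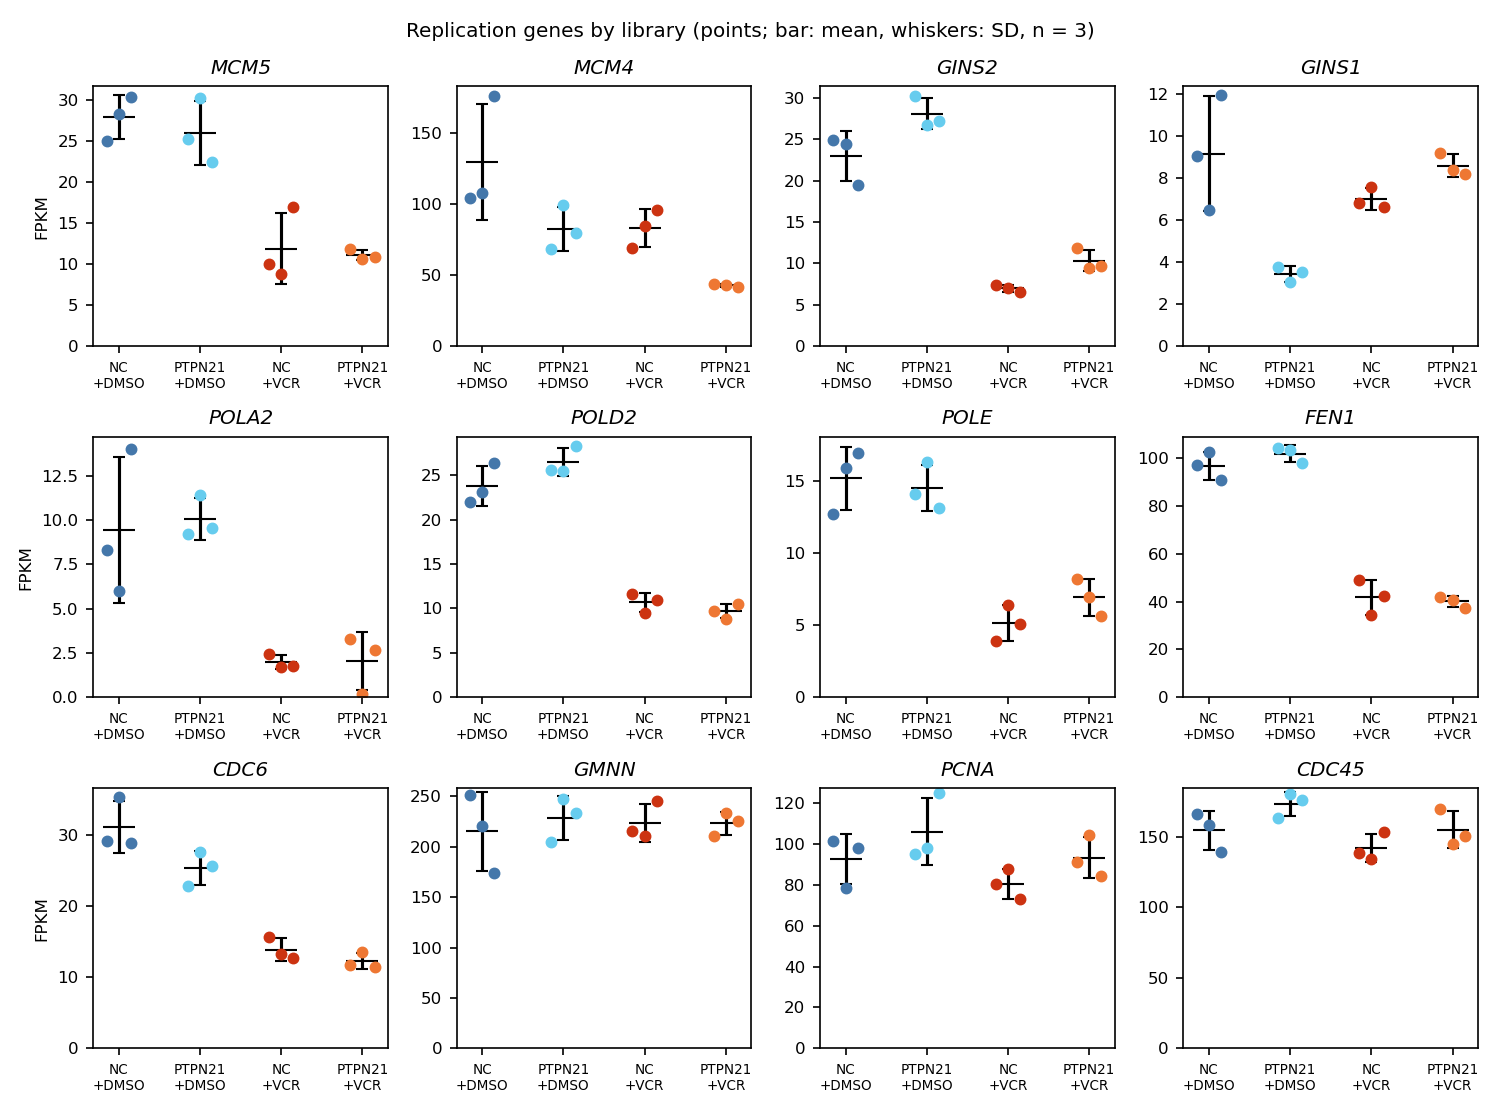
FPKM (vertical axes, from 0) of 12 replication genes in each of the 12 libraries, by group (horizontal axis), with points for libraries, bars for means and whiskers for SD of 3 libraries. POLA2, GINS2, POLD2, POLE, FEN1 and CDC6 sit lower in all VCR libraries than in all DMSO libraries, whereas GMNN lies between 174 and 251 FPKM in every group.

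Among the factors that load the helicase, CDC6 was lower in both constructs and GMNN passed in neither as deposited, while with median ratio scaling GMNN passed higher in NC cells. CDC6 (ENSG00000094804, chr17:40287633-40304657, plus strand), the ATPase that bridges ORC and the helicase, measured 29.2, 35.4 and 28.9 FPKM in NC+DMSO and 15.7, 13.2 and 12.7 in NC+VCR. In PTPN21 cells it measured 22.8, 27.6 and 25.6 with DMSO and 11.7, 13.5 and 11.4 with VCR. No VCR library came near a DMSO library, and the log2 fold changes were -1.11 in NC (SE 0.15, adjusted p = 0.000202) and -0.99 in PTPN21 cells (SE 0.15, adjusted p = 0.000479). CDT1, the partner of CDC6, was more variable, at 8.80, 11.1 and 12.2 FPKM in NC+DMSO and 14.5, 8.52 and 5.65 in NC+VCR, which overlap. In PTPN21 cells CDT1 measured 13.9, 13.7 and 12.2 with DMSO and 6.62, 4.195 and 8.20 with VCR, without overlap, and passed lower at -0.99 (SE 0.29, adjusted p = 0.0241). It passed in 14 of 21 alternatives. GMNN, the inhibitor of CDT1, was the most abundant of the 3, at 174 to 251 FPKM in NC+DMSO, 205 to 247 in PTPN21+DMSO, 211 to 245 in NC+VCR and 211 to 233 in PTPN21+VCR. Its groups overlapped in every comparison of the deposited FPKM. The 95% interval of its log2 change with VCR ran from -0.23 to 0.36 in NC cells, a value read after the levels were seen.

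Within ORC, which marks origins, all 6 genes had negative values with VCR in NC cells and 4 in PTPN21 cells. ORC1, ORC2 and ORC5 passed lower with VCR in NC cells and ORC5 in PTPN21 cells, and no ORC gene passed under median ratio scaling or quantile normalization in either construct. ORC5 stood at 13.1 to 15.2 FPKM in NC+DMSO and 4.13 to 8.72 in NC+VCR, and at 16.5 to 16.8 and 8.72 to 9.16 in PTPN21 cells. ORC1 stood at 17.7 to 22.5 and 8.53 to 13.8 FPKM in NC cells, without overlap, and at 14.2 to 16.5 and 9.82 to 14.5 in PTPN21 cells, with overlap. ORC2 was at 10.8 to 15.1 and 6.07 to 9.30 FPKM in NC cells. ORC3, ORC4 and ORC6 passed in neither construct as deposited, and ORC6 was the most abundant ORC gene in DMSO, at 50.5 to 63.6 FPKM.

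Among the 7 genes for origin firing, GINS2 fell in both constructs and CDC45 passed in neither. GINS2 (ENSG00000131153, chr16:85676198-85690073, minus strand), a subunit of the GINS complex whose promoter is shown above, measured 24.9, 24.5 and 19.4 FPKM in NC+DMSO and 7.45, 7.001 and 6.51 in NC+VCR. In PTPN21 cells it measured 30.2, 26.7 and 27.2 with DMSO and 11.8, 9.50 and 9.74 with VCR. The groups were far apart, and the log2 fold changes were -1.58 in NC (SE 0.15, adjusted p = 2.39e-05) and -1.36 in PTPN21 cells (SE 0.15, adjusted p = 6.74e-05). GINS1 passed higher with VCR in PTPN21 cells and is described with the PTPN21 comparisons. GINS3 and GINS4 passed in neither construct as deposited, at 7.62 to 16.2 and 4.48 to 7.24 FPKM over the 12 libraries. GINS3 passed higher in PTPN21 cells, and DBF4 in NC cells, with median ratio scaling and with quantile normalization. CDC45, which completes the active helicase, ranged from 134 to 180 FPKM over the 12 libraries and passed in neither construct. Of the kinase pair, CDC7 passed lower in NC cells, from 7.64 to 12.4 down to 3.15 to 6.91 FPKM, while its activator DBF4 overlapped between groups, at 7.02 to 12.3 and 10.1 to 15.8.

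The most negative log2 fold change of the 49 with VCR in the deposited FPKM was that of POLA2, in both constructs. POLA2 (ENSG00000014138, chr11:65261762-65305589, plus strand), the regulatory subunit of polymerase alpha, measured 8.31, 6.03 and 14.01 FPKM in NC+DMSO and 2.45, 1.71 and 1.79 in NC+VCR. In PTPN21 cells it measured 9.23, 11.4 and 9.54 with DMSO and 3.28, 0.210 and 2.66 with VCR. All VCR libraries were below all DMSO libraries, and PTPN21+VCR replicate 2 was the lowest. The log2 fold changes were -1.74 in NC (SE 0.42, adjusted p = 0.00702) and -2.05 in PTPN21 cells (SE 0.42, adjusted p = 0.00347), and without PTPN21+VCR replicate 2 the second value was -1.48. The catalytic subunit POLA1 passed with VCR in neither construct, at 14.8 to 21.9 and 11.6 to 15.5 FPKM in NC cells. PRIM1, the catalytic primase subunit, stood at 76.0 to 101 and 41.6 to 58.0 FPKM in NC cells and at 104 to 115.1 and 51.6 to 55.5 in PTPN21 cells, where it fell by 1.03 on the log2 scale (SE 0.14, adjusted p = 0.000282). Its partner PRIM2 passed lower in NC cells, from 10.3 to 12.1 down to 4.23 to 7.16 FPKM. PRIM1 shares 33 exon bases on the same strand with NACA, a gene at 1554 FPKM, so reads in those bases cannot be told apart.

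The 5 genes placed in the role of polymerases delta and epsilon (POLD1, POLD2, POLD3, POLE and POLE2) passed lower with VCR in NC cells. In PTPN21 cells POLD2 and POLE passed lower. Further subunit genes, POLD4, POLE3 and POLE4, are among the other fork and origin genes counted below. In NC cells POLD4 passed higher, from a mean of 12.6 FPKM with DMSO to 22.1 with VCR (log2 fold change 0.79). The means of POLE3 and POLE4 were lower with VCR there, from 118 to 85.9 and from 7.88 to 4.12 FPKM. POLE (ENSG00000177084, chr12:132623753-132687365, minus strand), the catalytic subunit of the leading-strand polymerase, measured 12.7, 15.9 and 16.9 FPKM in NC+DMSO and 3.91, 6.43 and 5.09 in NC+VCR, a log2 fold change of -1.41 (SE 0.20, adjusted p = 0.000350). In PTPN21 cells it stood at 14.1, 16.3 and 13.2 with DMSO and 8.23, 6.95 and 5.61 with VCR. The gap between groups was wider than the spread within them in both constructs. POLD2 (ENSG00000106628, chr7:44114681-44124358, minus strand), a regulatory subunit of polymerase delta, measured 25.6, 25.5 and 28.3 FPKM in PTPN21+DMSO and 9.73, 8.86 and 10.48 in PTPN21+VCR, a log2 fold change of -1.36 (SE 0.14, adjusted p = 3.66e-05). In NC cells POLD2 stood at 21.9 to 26.3 and 9.54 to 11.7 FPKM. POLD1, the catalytic subunit of polymerase delta, fell by 1.17 in NC cells (SE 0.24, adjusted p = 0.00277), from 13.6, 16.8 and 22.8 down to 8.05, 5.07 and 8.76 FPKM. POLD3 fell by 1.12 (SE 0.29, adjusted p = 0.0106), from 15.9, 11.3 and 14.1 down to 3.98, 10.7 and 4.17 FPKM, and NC+VCR replicate 2 stood close to the lowest DMSO library. POLD3 passed in 18 of 21 alternatives. In PTPN21 cells POLD1, POLD3 and POLE2 did not pass. With median ratio scaling 3 of the 5 genes placed in this role passed lower in NC cells. In PTPN21 cells 2 passed lower, and 4 of the 5 values were negative.

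FEN1 (ENSG00000168496, chr11:61792637-61797244, plus strand), the nuclease that trims Okazaki fragments, measured 96.9, 102 and 90.7 FPKM in NC+DMSO and 48.9, 34.4 and 42.2 in NC+VCR. In PTPN21 cells it measured 104, 104 and 97.8 with DMSO and 42.0, 40.7 and 37.5 with VCR. Its log2 fold changes were -1.20 in NC (SE 0.13, adjusted p = 5.48e-05) and -1.33 in PTPN21 cells (SE 0.13, adjusted p = 2.55e-05), with wide gaps between groups. FEN1 shares 166 exon bases with TMEM258 on the opposite strand, a gene at 42.2 FPKM, and no strand setting of the counting is given in the sources used here. The ligase LIG1 passed lower in PTPN21 cells, from 21.6 to 26.7 down to 10.4 to 16.1 FPKM.

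Among the 6 clamp and clamp loader genes, 1 passed lower with VCR in NC cells and 1 higher in PTPN21 cells. PCNA, the sliding clamp, measured 101, 78.5 and 98.1 FPKM in NC+DMSO and 80.2, 87.8 and 73.2 in NC+VCR, and in PTPN21 cells 95.3, 98.0 and 125 with DMSO and 91.4, 104 and 84.3 with VCR. The groups overlapped and PCNA passed in neither construct. Of the clamp loader genes, RFC4 passed lower in NC cells, from 91.3 to 127 down to 56.3 to 68.3 FPKM, and RFC3 passed higher in PTPN21 cells, from 7.93, 11.9 and 9.74 up to 16.3, 17.9 and 14.4 FPKM (log2 fold change 0.68, SE 0.19, adjusted p = 0.0176). RFC1, RFC2 and RFC5 passed in neither construct as deposited. RFC3 in NC cells overlapped between groups, at 12.4 to 16.1 and 10.9 to 14.8 FPKM. Of the 3 RPA subunits, RPA2 passed lower in NC cells, from 118 to 142 down to 78.2 to 93.9 FPKM. RPA3 passed higher there, from 6.65, 6.70 and 7.38 up to 8.66, 9.42 and 13.8 FPKM (log2 fold change 0.53, SE 0.18, adjusted p = 0.0398), and passed in 9 of 21 alternatives, with 0.34 without NC+VCR replicate 3. RPA1 passed higher in PTPN21 cells, from 8.90, 8.83 and 9.32 up to 12.7, 11.5 and 12.1 FPKM (log2 fold change 0.39, SE 0.13, adjusted p = 0.0462), and in 11 of 21 alternatives. In these 3 rises the ranges did not overlap.

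Of the 5 genes of nucleotide supply, 4 passed lower with VCR in each construct. All 5 values stayed negative with median ratio scaling, and 1 passed in each. RRM1 and RRM2, the subunits of ribonucleotide reductase, passed lower in NC cells, RRM1 from 83.5 to 90.7 down to 46.1 to 54.8 FPKM and RRM2 from 49.5 to 76.4 down to 27.4 to 49.7, where the ranges overlap. TYMS, which makes thymidylate, went from 217 to 288 down to 135 to 166 FPKM, and DUT, which clears dUTP, from 40.2 to 53.7 down to 24.2 to 27.3. In PTPN21 cells RRM1, TYMS, DUT and TK1 passed lower and RRM2 did not. TK1, the thymidine kinase, ranged from 15.7 to 43.9 FPKM within NC+DMSO alone and passed no test in NC cells. TYMS shares 967 exon bases with ENOSF1 on the opposite strand, a gene at 10.4 FPKM.

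Other gene lists were counted in the same way. With VCR, 28.3% of all genes tested were lower and 7.91% higher in NC cells. In PTPN21 cells the shares were 19.3% and 9.22%. Of 36 other fork and origin genes 34 were tested, and 18 were lower and 2 higher with VCR in NC cells and 16 lower and 1 higher in PTPN21 cells. Of 20 other nucleotide genes, 9 were lower in NC cells, and 7 lower and 1 higher in PTPN21 cells. Of 19 G2/M genes, by contrast, 6 were higher and 3 lower in NC cells and 8 higher and 0 lower in PTPN21 cells. In NC cells 10 of the 19 log2 changes were negative, with a median of -0.03 beside -0.36 over all genes tested. In PTPN21 cells 4 were negative, with a median of 0.28 beside -0.17. The summed FPKM of the 19 was 960 to 1041 in NC+DMSO and 1244 to 1416 in NC+VCR. Abundant genes weigh most in that sum, such as PTTG1, with means of 216 and 449. The 13 mitochondrially encoded genes, which have no part in nuclear replication, were lower for 11 in NC and 10 in PTPN21 cells, and the erythroid sum given above was lower with VCR as well. These counts are from FPKM as deposited, the lists were not refitted under the other scalings, and their bearing on the replication genes was not tested.

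Subunits of a complex stood at unequal levels, and a ratio of FPKM within a library is the same whatever factor multiplies the library, although quantile normalization can change it. Per length, MCM3 made up 39.6% ± 3.77 (SD, n = 3) of the summed MCM2-7 FPKM in NC+DMSO and MCM5 4.50% ± 0.203 (SD, n = 3). The ratio of MCM3 to MCM5 was 7.69 to 9.91 in NC+DMSO, 10.8 to 17.7 in NC+VCR, 8.15 to 10.9 in PTPN21+DMSO and 12.4 to 13.6 in PTPN21+VCR. VCR libraries thus held a higher ratio, without overlap, in both constructs. GINS2 was the most abundant GINS gene in DMSO, with 48.0% ± 5.56 (SD, n = 3) of the sum in NC and 61.6% ± 2.10 (SD, n = 3) in PTPN21 cells. With VCR its share was 24.0% ± 1.44 (SD, n = 3) and 28.0% ± 3.85 (SD, n = 3), and GINS3 then held the largest mean share, 31.2% ± 2.94 (SD, n = 3) and 31.7% ± 7.50 (SD, n = 3). RPA2 exceeded RPA1 by a ratio of 10.2 to 11.5 in NC+DMSO and of 6.10 to 7.74 in NC+VCR, and of 12.5 to 13.6 and 8.08 to 9.30 in PTPN21 cells, again without overlap. These ratios were chosen after the values were seen and carry no test. For groups of 3, the smallest p an exact two-sided permutation test allows is 0.1.

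**Figure D4:**
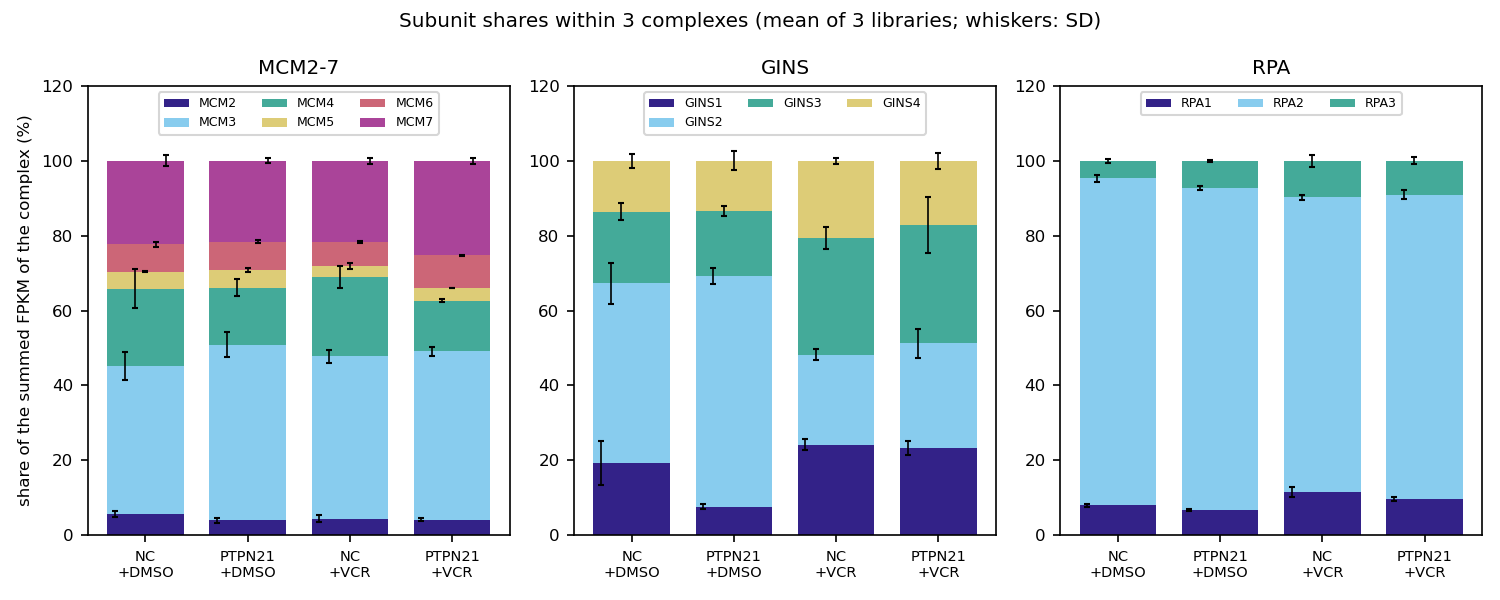
Stacked bars give each subunit's share (vertical axis, percent) of the summed FPKM of MCM2-7, GINS and RPA in the 4 groups (horizontal axis), as means of 3 libraries with SD whiskers at the top of each segment. GINS2 takes 48.0% and 61.6% of its complex in the DMSO groups and 24.0% and 28.0% in the VCR groups, and MCM4 takes 13.4% in PTPN21+VCR against 21.2% in NC+VCR.

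Without drug, PTPN21 was accompanied by lower values of 3 of the 49 genes and higher values of 0. Of all genes tested, 3.69% were lower and 2.65% higher. Of the 49, 18 had an unadjusted limma p under 0.05, and the share of all genes under that p is not given here. GINS1 (ENSG00000101003, chr20:25407727-25452628, plus strand), a GINS subunit, measured 9.08, 6.51 and 11.9 FPKM in NC+DMSO and 3.77, 3.04 and 3.55 in PTPN21+DMSO. The ranges lay apart, and GINS1 fell by 1.16 on the log2 scale (SE 0.20, adjusted p = 0.0124), passing in 20 of 21 alternatives. POLA1 (ENSG00000101868, chrX:24693919-24996986, plus strand) measured 17.8, 14.8 and 21.9 FPKM in NC+DMSO and 7.68, 10.3 and 10.0 in PTPN21+DMSO (log2 fold change -0.88, SE 0.21, adjusted p = 0.0362), and MCM2 (ENSG00000073111, chr3:127598223-127622436, plus strand) 28.97, 33.8 and 42.0 and 17.8, 22.5 and 23.5 (log2 fold change -0.68, SE 0.18, adjusted p = 0.0472). Neither overlapped between groups, but POLA1 passed in 10 and MCM2 in 3 of 21 alternatives. With median ratio scaling GINS1 alone of the 3 passed, and with quantile normalization MCM2 did not pass and RPA3 passed higher. The median of the 49 was -0.18, beside -0.14 over all genes.

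**Figure D5:**
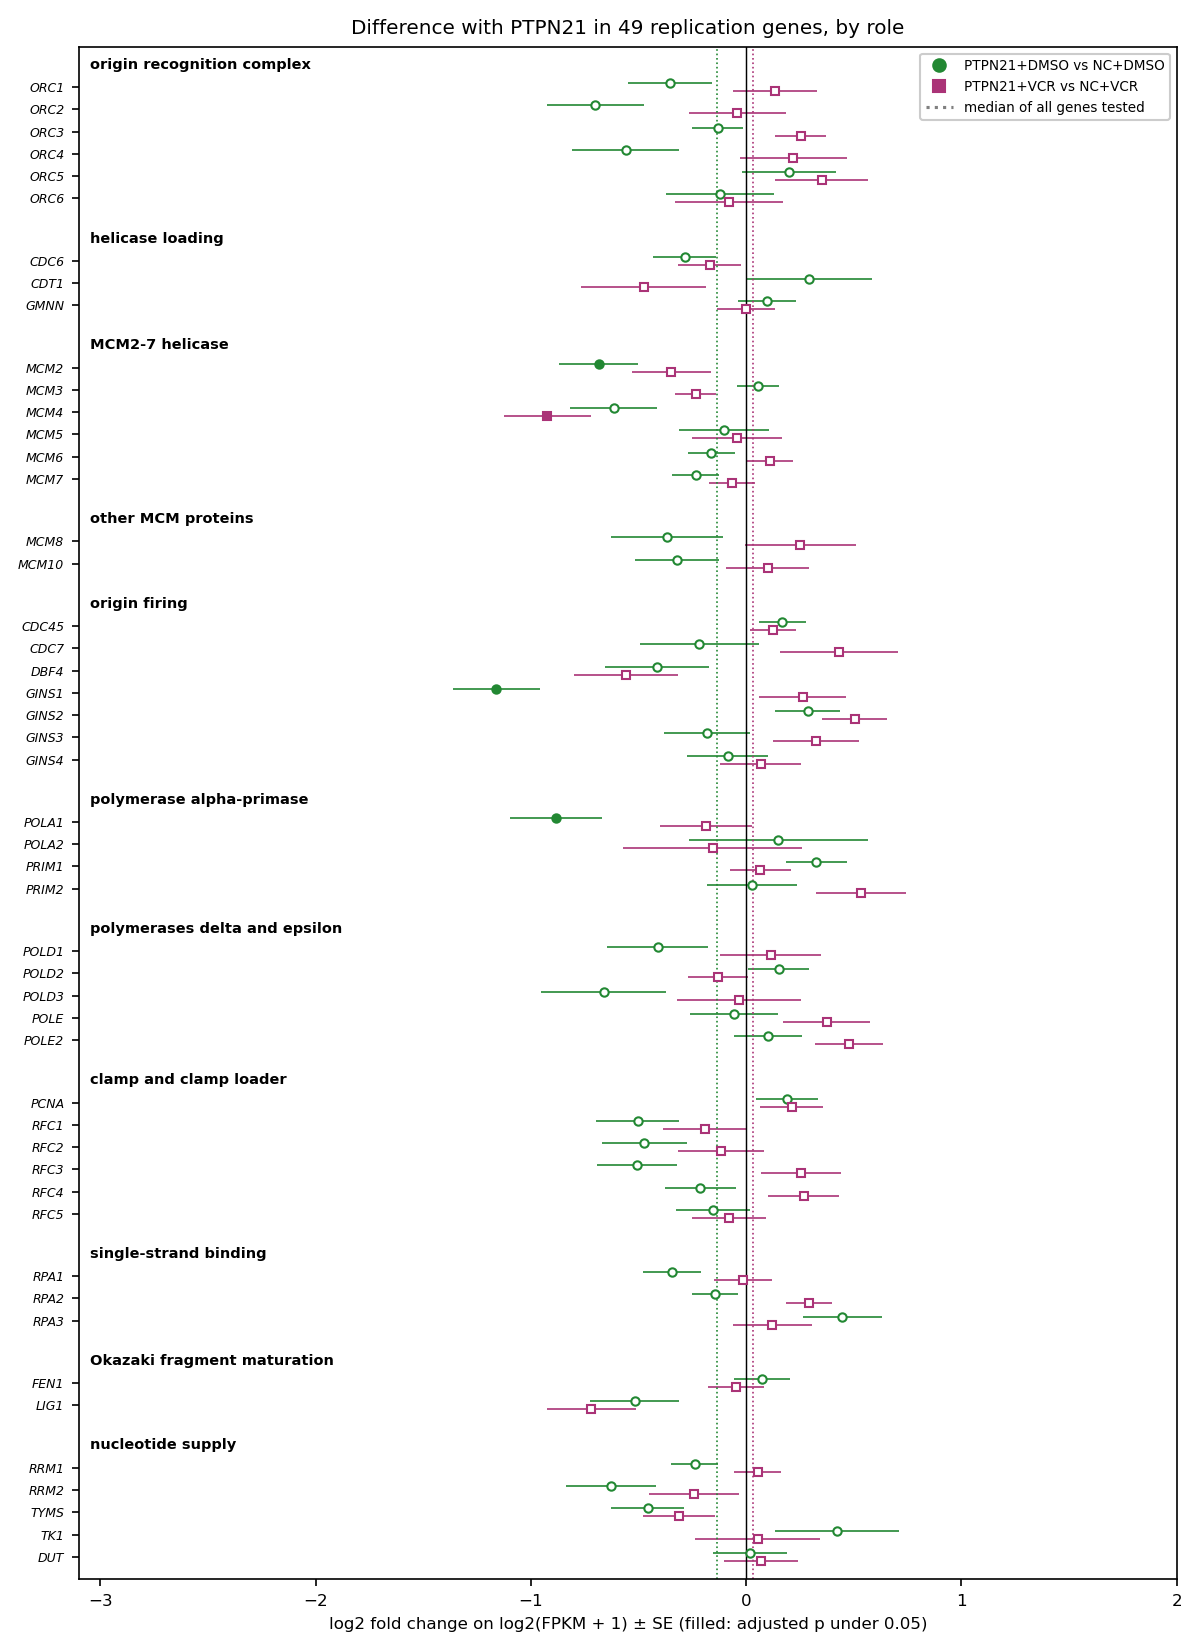
The plot gives the log2 fold change of PTPN21 against NC cells on the log2(FPKM + 1) scale (horizontal axis, with standard errors) of the 49 genes (vertical axis, by role), as circles in DMSO and squares in VCR, filled where the adjusted p was under 0.05. Filled points are MCM2, GINS1 and POLA1 in DMSO and MCM4 in VCR, all left of 0.

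Under VCR, the comparison the study describes for its RNA-seq, 1 of the 49 genes differed with PTPN21. This was MCM4, lower, against 0.82% of all genes tested lower and 1% higher. Of the 49, 8 had an unadjusted limma p under 0.05, and the share of all genes under that p is not given here. MCM4, a catalytic subunit of the helicase, measured 69.2, 84.7 and 95.9 FPKM in NC+VCR and 43.8, 43.4 and 41.9 in PTPN21+VCR, without overlap. Its log2 fold change was -0.92 (SE 0.20, adjusted p = 0.0447), and it ranged from -1.05 to -0.82 over the alternatives, passing in 8 of 21. The ratio of MCM4 to MCM7 in the deposited FPKM ran from 0.791 to 1.12 in NC+VCR and from 0.505 to 0.549 in PTPN21+VCR. In DMSO that ratio overlapped between constructs, at 0.752 to 1.29 and 0.588 to 0.793. MCM4 itself was lower with PTPN21 in DMSO too, without overlap, though it did not pass there. It measured 104, 107 and 176 FPKM in NC+DMSO and 68.6, 99.4 and 79.4 in PTPN21+DMSO. Its interaction did not pass, so a difference particular to VCR is not shown. Another 8 genes, named for their roles whatever their values, did not pass, and the 95% intervals of their log2 differences follow. The interval ran from -0.29 to 0.56 for ORC1, from -0.49 to 0.15 for CDC6, from -1.11 to 0.16 for CDT1 and from -0.30 to 0.29 for GMNN. For MCM2 it ran from -0.75 to 0.05, for MCM5 from -0.50 to 0.41, for PCNA from -0.10 to 0.53 and for RRM2 from -0.70 to 0.21. The median of the 49 was 0.05, beside 0.03 over all genes.

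The interaction asks whether the response to VCR differed between constructs. It gave 0 of the 49 genes past the threshold in limma, against 0.0259% of all genes higher and 0.104% lower. Of the 49, 6 had an unadjusted limma p under 0.05, and the share of all genes under that p is not given here. The largest interaction value was that of GINS1, at 1.42 (SE 0.29, 95% interval 0.80 to 2.05, adjusted p = 0.0818), chosen after its values were seen. GINS1 measured 6.82, 7.58 and 6.63 FPKM in NC+VCR and 9.22, 8.39 and 8.21 in PTPN21+VCR, so that the PTPN21 libraries lay below the NC libraries in DMSO and above them in VCR. With VCR it rose by 1.11 in PTPN21 cells (SE 0.20, adjusted p = 0.00188), while in NC cells the DMSO and VCR ranges overlapped. The widest interval among the genes named for this test was that of CDT1, from -1.67 to 0.13, with -0.77 as its value. The values of the others were 0.49 for ORC1, 0.12 for CDC6, -0.10 for GMNN, 0.34 for MCM2, 0.06 for MCM5, 0.02 for PCNA and 0.39 for RRM2. With median ratio scaling those of CDC6, MCM5 and PCNA turned negative, and no adjusted p of these 8 passed under any alternative.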

How the data were processed

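Total RNA of 12 libraries was sequenced by an external company, and the authors deposited 1 table of FPKM values for 60671 genes with human Ensembl identifiers. The submitters' processing notes name fastp, Bowtie2 and the mouse build mm10, although the identifiers are human. The human build, the annotation, the counting program and strand are not given in the sources used here. Of the identifiers 58453 (96.3%) are in GENCODE release 29 (GRCh38), used for positions. Groups came from the sample labels. Here the deposited FPKM were raised by a pseudocount of 1 and put on the log2 scale. Genes averaging 1 FPKM or more (11591) entered limma (version 3.58.1, R 4.3.3), with the 4 group means as coefficients and a trended prior variance, and the Benjamini-Hochberg adjustment covered all of them, with 0.05 as the threshold. The code was first tested on simulated data, with 200 genes changed in PTPN21+VCR against NC+VCR. It recovered 39% of them at a log2 change of 1 and 91% at a log2 change of 2. A low count of genes past the threshold therefore does not show that smaller differences are absent. The 49 genes, their roles and the other lists were chosen with earlier results of these data known. Fold changes with errors were given for genes past the threshold, at most the 8 largest rises and the 8 largest falls in a comparison, and for 8 genes listed by role in the PTPN21+VCR comparison and the interaction, while levels could be given for any. Depth was estimated from single-exon genes with the range of steps, from 40 to 75, set after seeing the values. Other settings tried were 0.1 as the pseudocount, a minimum of 5 FPKM or none, 3 other scalings, no trend, only the 2 groups compared, a replicate block and leaving out each library. Replicates of a group correlated at 0.939 to 0.976 across genes. Pseudogenes of 11 members held at most 1.13% of the member's FPKM. Promoters came from RefSeq. Plots used Python 3.11.15, pandas 2.3.3, numpy 2.4.6 and matplotlib 3.10.9.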

Additional observations from a re-analysis of the deposited data

Results flagged for a closer look

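For GINS1, all 3 PTPN21+DMSO libraries lay below all 3 NC+DMSO libraries, and all 3 PTPN21+VCR libraries lay above all 3 NC+VCR libraries. The lower value in DMSO passed the threshold, and the higher value in VCR did not (log2 fold change 0.26, limma adjusted p = 0.557). The difference between the 2 effects was 1.42 on the log2(FPKM + 1) scale, with a limma adjusted p of 0.0818 after Benjamini-Hochberg adjustment over all genes, which misses the threshold. It passed without NC+DMSO replicate 2, in which GINS1 was lowest of the 3 NC+DMSO libraries at 6.51 FPKM.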

How the results depend on the processing

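With median ratio scaling 15 of the 49 genes passed in NC+VCR against NC+DMSO in place of 28, of which 12 were shared, and 1 in place of 3 passed in PTPN21+DMSO against NC+DMSO. The median of the 49 with median ratio scaling was -0.22 (NC, VCR), -0.15 (PTPN21, VCR), -0.017 (PTPN21 in DMSO) and 0.077 (interaction). With quantile normalization it was -0.42, -0.18, -0.080 and 0.20 in the same order, and with TPM scaling it was -0.72 in NC with VCR, -0.33 for PTPN21 in DMSO, -0.0045 for PTPN21 in VCR and 0.36 for the interaction. In PTPN21+DMSO against NC+DMSO 1 gene passed with no filter on low values, 1 without the trend, 1 with the replicate block and 0 with only the 2 groups compared. In PTPN21+VCR against NC+VCR 0 passed with no filter, with quantile normalization, without the trend and with the replicate block. With the replicate block 26 and 22 genes passed in the 2 VCR comparisons and 0 in the interaction. Deviations of libraries with the same number correlated at -0.145 to 0.058, none of 18 pairs above 0.1. No pairing by number was thus seen across all genes. A shared origin that is small or touches few genes would not show in these correlations. Leaving out 1 library at a time gave 24 to 29 genes in NC with VCR, 18 to 24 in PTPN21 cells with VCR, 1 to 3 for PTPN21 in DMSO, 0 to 1 for PTPN21 in VCR and 0 to 1 for the interaction. The medians then ran from -0.70 to -0.58, from -0.42 to -0.30, from -0.21 to -0.16, from -0.022 to 0.072 and from 0.22 to 0.32. MCM4 under VCR passed without each NC+DMSO library and lost its call without any other library. Of 352 values of named genes under other settings, 319 kept their direction and side of the threshold, 29 lost the call and 4 reversed, all in the interaction, namely CDC6 at -0.076, MCM5 at -0.13 and PCNA at -0.17 with median ratio scaling and MCM5 at -0.018 with quantile normalization. Of 480 values with 1 library left out, 417 kept both, 49 lost the call and 14 reversed, with ranges of -0.061 to 0.14 for PCNA, -0.22 to 0.048 for GMNN and -0.11 to 0.32 for MCM5 in the interaction, and of -0.019 to 0.30 for ORC1, -0.043 to 0.067 for GMNN and -0.21 to 0.22 for MCM5 in PTPN21+VCR against NC+VCR. The cause was not tested. The bearing of depth on these results was not tested. Estimated depth differed between constructs and, within each construct, between DMSO and VCR, so it cannot be told apart from either.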
